A study of Mus musculus with 6 samples.

Results

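Voltage-gated sodium and calcium channel genes were followed in the olfactory epithelium of mice carrying the OMP-GFP allele. The members were all genes whose symbol starts with Scn, a number and a or b, or with Cacna, Cacnb or Cacng, and which a probe set of the array names alone. This gave 35 genes of 18193 named on the array, 11 sodium and 24 calcium channel genes, read by 85 of 45037 probe sets. Each gene is represented by its probe set of highest mean signal.

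The study compared 3 arrays of olfactory epithelium RNA from mice homozygous for OMP-GFP with 3 from mice heterozygous for it, on Affymetrix mouse genome arrays. As background, this knock-in puts GFP, a green fluorescent protein, in place of the coding part of Omp, the gene of olfactory marker protein. Homozygous mice thus lack the protein, while heterozygous mice still have 1 intact Omp copy. The groups also differ in GFP copies and have no wild type beside them, so loss of Omp and gain of GFP cannot be told apart. The labels give no age, sex or strain and are silent on whether animals were pooled for an RNA. Every p-value therefore measures only the spread between these samples.

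Voltage-gated channels carry the electrical signals of neurons. A large alpha subunit, named Nav for sodium and Cav for calcium channels, forms the pore and senses voltage, while smaller beta, alpha2delta and gamma subunits set how many channels reach the membrane and how they gate. In olfactory sensory neurons, odour transduction in the cilia depolarises the cell, sodium channels fire the action potential that runs to the olfactory bulb, and presynaptic calcium channels trigger transmitter release there. Nav1.7, encoded by Scn9a, is known for this step: people and mice without it cannot smell.

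The tissue label was borne out by its markers. The 10 measured markers of mature olfactory neurons summed to 82547 to 89290 signal units in homozygous arrays and 72185 to 91141 in heterozygous arrays. Cngb1, at 42.1 to 79.7 on all arrays, was the dimmest of these. Median signals per array were 157.8 to 160.5 in homozygous and 147.9 to 163.7 in heterozygous arrays. At the first of the Omp probe sets, signals were 5.7, 8.8 and 31.3 in homozygous arrays and 26.3, 4664 and 9143 in heterozygous 1, 2 and 3, so the first heterozygous library lies with the homozygous ones. The second Omp probe set read 7919 to 8774 in homozygous and 7968 to 8709 in heterozygous arrays and did not separate the groups. The first heterozygous library is called the library labelled heterozygous 1 below, since the place of either probe set in the gene is not known here. That library also had the highest sum of the 7 measured myelin and glia markers, 21771 against 10988 to 11653 on the other arrays. The excess lay mainly in Mbp, at 7269 against 655.2 to 1038, and Pmp22, at 4899 against 850.8 to 1206. Cnp, S100b and Mag were also highest there. Fabp7, however, was lowest there at 6290, and Sox10 at 444.6 was below homozygous 3 and heterozygous 2. Heterozygous 3 had the highest sum of the 13 measured brain and olfactory bulb neuron markers, at 3719, against 1847 to 2183 in homozygous arrays and 1719 and 2015 in the other heterozygous arrays.

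No channel gene passed the test between homozygous and heterozygous arrays. Signals were taken as log2(signal + 38.8), and limma was fitted to the 22514 probe sets whose mean lay at or above the median of all probe sets. Of the 35 channel genes 14 passed that filter, 6 sodium and 8 calcium channel genes, and 21 were too dim to be tested. Of these 14, 0 had a Benjamini-Hochberg adjusted p under 0.05 in limma, where 0% of all probe sets tested did. At an unadjusted p under 0.05 there were 0 of 14, beside 5.73% of all probe sets, and the groups failed to overlap for 0 of 14, beside 10.9% of all. The differences, homozygous minus heterozygous, ran from -0.31 to 0.12 on the log2 scale, with a median of 0.056 beside 0.010 over all probe sets tested. Of the 14 genes 10 were higher in homozygous arrays, beside 53.6% of all probe sets, and with arrays set to a common median 8 were, beside 37.1% of all probe sets under that scaling. The members' median was 0.0064, with 7 of 14 higher, without heterozygous 2, and 0.0071 with the common median, under which the median of all probe sets was -0.040. The 95% intervals of all 14 differences lay between -0.75, the lower end for Scn2b, and 0.41, the upper end for Scn3a. Intervals differed in width, that of Scn3b running from -0.13 to 0.18. Each interval belongs to the probe set that represents its gene. Changes beyond it are outside what that probe set measured in this fit, and those within it were not resolved. Other probe sets of a gene can lie beyond it. For Cacna2d1 the interval ran from -0.19 to 0.31, while 1440397_at and 1449999_a_at, described below, differed by -1.38 and 0.39. The number of arrays limits this precision.

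**Figure D1:**
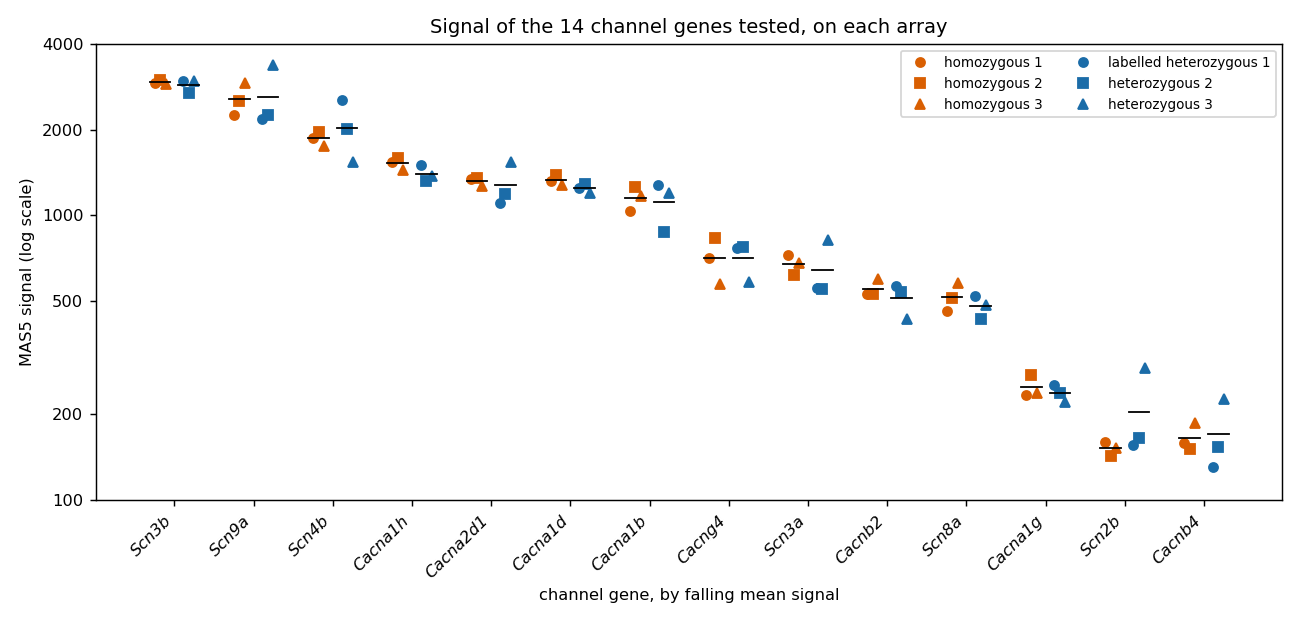
MAS5 signal (vertical axis, log scale) of the 14 channel genes tested, by falling mean signal, with homozygous arrays left of heterozygous arrays for each gene. Points are single arrays and black lines group means. The groups overlap for every gene shown, and heterozygous 3 stands above the other 5 arrays for Scn2b at 290.3.

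**Figure D2:**
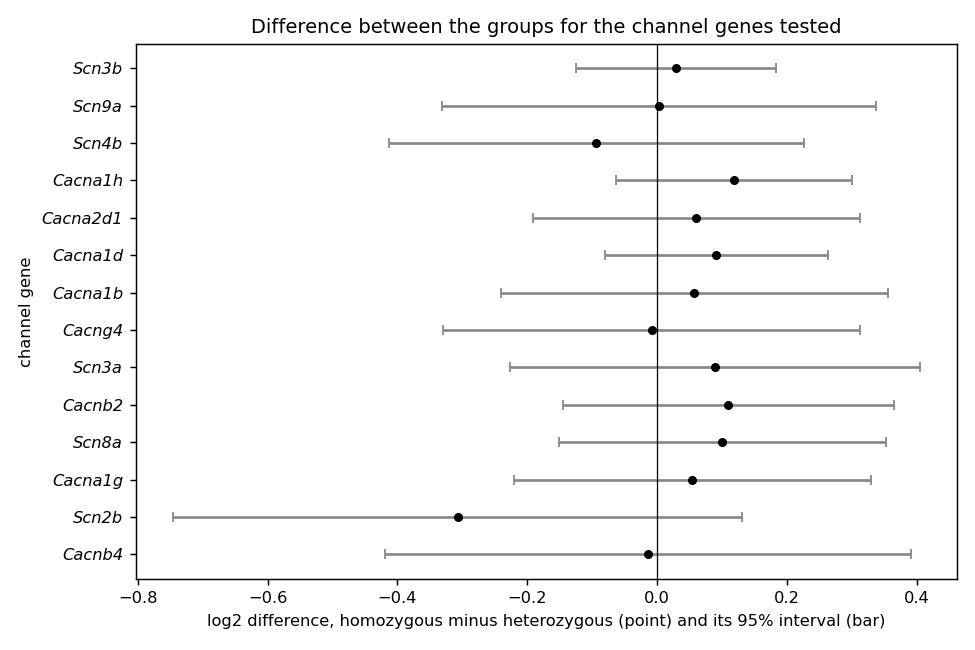
Log2 difference, homozygous minus heterozygous (points), with its 95% interval from limma (bars), for the 14 channel genes tested. Every interval spans 0, and the largest difference is that of Scn2b at -0.31.

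Among the sodium channel alpha subunits, 3 of 8 genes were bright enough to be tested, Scn9a, Scn3a and Scn8a. Signals of different probe sets depend on their probes as well as on the transcript, so the order of genes is one of signals and not of transcript numbers. Scn9a (probe set 1442810_x_at), the Nav1.7 gene, had a higher mean signal than 94.1% of all probe sets. The other probe sets of Scn9a had lower means, of 921.9, 833.6, 253.5 and 137.9. At 1442810_x_at it read 2260, 2532 and 2918 in homozygous 1, 2 and 3 and 2189, 2252 and 3364 in heterozygous 1, 2 and 3. The highest homozygous and the highest heterozygous array both stood above the rest of their group, and the groups overlapped fully. Its log2 difference was 0.0030 ± 0.15 (SE; limma adjusted p 0.998). Its sign rested on single arrays. Leaving out homozygous 3 gave -0.091, leaving out the library labelled heterozygous 1 gave -0.11, leaving out heterozygous 2 gave -0.085 and leaving out heterozygous 3 gave 0.20. With arrays set to a common median it was -0.049.

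Scn3a (1439204_at) encodes Nav1.3, a channel of immature neurons that olfactory neurons also use. It read 728.8, 619.3 and 681.2 in homozygous arrays and 557.7, 551.2 and 819.7 in heterozygous arrays. The first pair of heterozygous arrays was below all homozygous arrays and heterozygous 3 above all of them. The difference was 0.089 ± 0.14 (SE; limma adjusted p 0.963), turning to -0.0036 without heterozygous 2 and to 0.27 without heterozygous 3. Scn8a (1423515_at) encodes Nav1.6, the channel of axon initial segments and nodes of Ranvier. It read 462.4, 512.5 and 580.8 in homozygous arrays and 522.6, 432.7 and 485.9 in heterozygous arrays, a difference of 0.10 ± 0.11 (SE; limma adjusted p 0.939). Its groups overlapped, and it stayed higher in homozygous arrays whichever array was left out, at 0.022 to 0.17.

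The other 5 alpha subunits were below the filter, and their differences were not tested. Scn2a, the Nav1.2 gene of brain neurons, is described below. Scn7a, which encodes the sodium-sensing channel Nax, averaged 75.1 ± 27.6 (SD, n = 3) in homozygous and 69.6 ± 25.5 (SD, n = 3) in heterozygous arrays. Scn11a and Scn10a, the Nav1.9 and Nav1.8 genes of pain-sensing neurons, averaged 61.7 ± 26.97 and 11.3 ± 13.4 in homozygous arrays and 67.4 ± 15.5 and 19.5 ± 9.65 in heterozygous arrays. Scn1a, the Nav1.1 gene of inhibitory brain neurons, averaged 26.9 ± 10.9 in homozygous and 27.3 ± 28.2 in heterozygous arrays. For Scn10a and Scn1a the group means lie under the offset of 38.8, where a log2 difference says little.

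The 3 sodium channel beta subunit genes among the members were all tested. Scn3b (1435767_at), the brightest channel gene of all, had a higher mean signal than 94.95% of probe sets. It read 2910, 2997 and 2889 in homozygous arrays and 2967, 2684 and 2974 in heterozygous arrays. Its arrays spanned only 1.12-fold from lowest to highest, the narrowest span of the 35 genes, each at its brightest probe set. The dimmer Scn3b probe set 1426328_a_at, with a mean of 941.3, spanned 1.60-fold. At 1435767_at the difference was 0.029 ± 0.070 (SE), with an interval from -0.13 to 0.18 and a limma adjusted p of 0.983. It was -0.019 without heterozygous 2 and -0.023 with arrays set to a common median.

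Scn4b (1434008_at) encodes beta4, the subunit known for resurgent sodium current. It read 1877, 1964 and 1749 in homozygous arrays and 2533, 2017 and 1537 in heterozygous arrays. The heterozygous arrays bracketed the homozygous ones, with the library labelled heterozygous 1 highest and heterozygous 3 lowest of all 6. The difference was -0.093 ± 0.15 (SE; limma adjusted p 0.962), turning to 0.078 without the library labelled heterozygous 1. Without heterozygous 3 it was -0.28, with a limma adjusted p of 0.455. The high reading of Scn4b thus falls on the library with the highest myelin and glia sum, raised mainly at Mbp and Pmp22. The sum of the mature olfactory neuron markers was also highest there, at 91141, and lowest on heterozygous 3, at 72185. Not every such marker followed, Omp being highest on homozygous 3. The part of either cell type in the Scn4b readings was not tested.

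Scn2b (1436134_at) encodes beta2, a subunit linked to the alpha subunit by a disulfide bond. It read 159.6, 143.4 and 152.8 in homozygous arrays and 156.1, 165.8 and 290.3 in heterozygous arrays. The difference of -0.31 ± 0.20 (SE; limma adjusted p 0.902) was the largest of the 14 and came with a single high array, since without heterozygous 3 it was -0.067. Without the library labelled heterozygous 1 it was -0.44. Scn2b and Scn4b are next to each other on chromosome 9, so this pair of neighbours went opposite ways on heterozygous 3.

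Position and sequence were set beside these values. In the RefSeq order of protein-coding genes (assembly GRCm38.p6) 15 of the 35 channel genes have another of them as a direct neighbour. On chromosome 2, Scn3a and Scn2a are neighbours, and Scn1a, Scn9a and Scn7a follow one another. Bright and dim genes therefore stand side by side, Scn9a at a mean of 2586 between Scn1a at 27.1 and Scn7a at 72.4. On chromosome 11, Cacng4 at 708.1 lies between Cacng1 at 30.1 and Cacng5 at 49.7. The 250 bases before the RefSeq start are given for the brightest alpha subunit gene, Scn9a (chr2:66634963-66635212, minus strand), for the neighbours Scn4b (chr9:45138374-45138623, plus strand) and Scn2b (chr9:45117626-45117875, plus strand), and for Cacna1b (chr2:24763153-24763402, minus strand), with capitals at matches to the motifs named after them.
Scn9a: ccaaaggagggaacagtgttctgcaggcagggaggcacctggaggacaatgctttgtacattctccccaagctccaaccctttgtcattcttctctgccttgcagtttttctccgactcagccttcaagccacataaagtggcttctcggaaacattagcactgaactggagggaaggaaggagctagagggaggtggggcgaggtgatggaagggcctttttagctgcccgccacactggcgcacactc
Scn4b: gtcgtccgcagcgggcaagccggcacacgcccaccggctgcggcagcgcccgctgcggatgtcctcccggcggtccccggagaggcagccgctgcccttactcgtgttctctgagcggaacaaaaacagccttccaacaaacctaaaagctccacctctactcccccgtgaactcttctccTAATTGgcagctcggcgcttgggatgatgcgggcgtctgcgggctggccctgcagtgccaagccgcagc
Scn2b: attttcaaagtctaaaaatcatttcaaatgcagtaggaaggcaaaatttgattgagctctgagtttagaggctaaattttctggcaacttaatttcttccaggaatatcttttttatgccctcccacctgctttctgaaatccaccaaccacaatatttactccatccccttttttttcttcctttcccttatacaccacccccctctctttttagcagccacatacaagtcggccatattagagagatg
Cacna1b: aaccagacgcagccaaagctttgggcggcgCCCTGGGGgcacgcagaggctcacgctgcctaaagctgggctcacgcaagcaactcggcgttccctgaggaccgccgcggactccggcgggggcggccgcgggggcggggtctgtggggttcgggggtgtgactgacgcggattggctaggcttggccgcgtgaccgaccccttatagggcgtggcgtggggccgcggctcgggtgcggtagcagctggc
The motifs searched on both strands were CCCNNGGG, the core bound by the olfactory Ebf factors, which is its own reverse complement, and TAATTG, a core of homeodomain factors such as Lhx2. They cannot overlap in sequence. CCCNNGGG was in 13.5% of the 37 promoter windows held for 27 of the channel genes, and in 11.8% of all 32851 windows. TAATTG was in 5.41% of the channel windows and 7.17% of all. In the windows shown, Scn4b held TAATTG 69 bases before the start and Cacna1b held CCCNNGGG 220 bases before it, while Scn9a and Scn2b held neither. These are matches of letters and not measured sites.

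Calcium channel alpha subunits of the high-voltage classes were bright at a single gene per class. In the L-type class (Cav1), Cacna1d (1427974_s_at, Cav1.3), a channel that opens at fairly low voltage, read 1326, 1386 and 1276 in homozygous arrays and 1251, 1288 and 1196 in heterozygous arrays. A single heterozygous array, heterozygous 2, reached above the lowest homozygous one. The difference was 0.091 ± 0.078 (SE), with an interval from -0.081 to 0.26 and a limma adjusted p of 0.915. It stayed between 0.062 and 0.12 with any array left out. Cacna1c (1421297_a_at), the Cav1.2 gene of heart, smooth muscle and brain, was below the filter and averaged 78.9 ± 21.1 (SD, n = 3) in homozygous and 75.6 ± 12.5 (SD, n = 3) in heterozygous arrays. Cacna1f, the Cav1.4 gene of photoreceptors, averaged 90.2 ± 25.7 in homozygous and 71.9 ± 13.4 in heterozygous arrays. Cacna1s, the Cav1.1 gene of skeletal muscle, read 7.3 to 32.5 in homozygous and 5.1 to 21.6 in heterozygous arrays.

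In the class of presynaptic channels (Cav2), Cacna1b (1460608_at), the N-type Cav2.2 gene, was the bright member. It read 1035, 1256 and 1173 in homozygous arrays and 1283, 872.5 and 1202 in heterozygous arrays. The lowest and the highest array were both heterozygous, and the difference was 0.057 ± 0.14 (SE; limma adjusted p 0.982). It turned to -0.0036 without homozygous 2 and to -0.11 without heterozygous 2. This spread belongs to 1460608_at. Another Cacna1b probe set, 1436602_x_at, had a mean of 1132 beside 1137 and spanned only 1.08-fold over the arrays. Its difference was 0.0099 ± 0.079 (SE; limma adjusted p 0.995). Cacna1a, the P/Q-type Cav2.1 gene that carries release at most brain synapses, was dim at all 4 of its probe sets, with means between 31.4 and 50.2. Cacna1e, the R-type Cav2.3 gene, averaged 117.7 ± 18.2 in homozygous and 148.5 ± 54.5 in heterozygous arrays, just below the filter. At that edge, Cacng7 and Cacna1e with means of 133.0 and 133.1 were left out, and Cacnb4 and Scn2b with 167.8 and 178.0 were tested.

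T-type channels (Cav3), which open near the resting voltage, were read at 2 genes. Cacna1h (1422710_a_at), the Cav3.2 gene, read 1544, 1593 and 1441 in homozygous arrays and 1509, 1326 and 1376 in heterozygous arrays. A pair of heterozygous arrays lay below all homozygous arrays, while the library labelled heterozygous 1 lay among them. Its difference of 0.12 ± 0.082 (SE) was the highest of the 14, with an interval from -0.064 to 0.30 and a limma adjusted p of 0.910. It stayed positive, between 0.080 and 0.17, whichever array was left out. Cacna1g (1423365_at), the Cav3.1 gene, averaged 249.1 ± 22.5 in homozygous and 238.3 ± 16.1 in heterozygous arrays (n = 3 each, with SD). The difference was 0.054 ± 0.12 (SE; limma adjusted p 0.981), and it was -0.0092 without homozygous 2.

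Auxiliary calcium channel subunits were mostly dim, with 4 of 15 genes tested. Cacnb2 (1456401_at) encodes a cytoplasmic beta subunit, which brings the pore to the membrane. It read 531.7, 531.0 and 597.8 in homozygous arrays and 565.1, 538.0 and 433.9 in heterozygous arrays. Heterozygous 3 was the low array, and the difference of 0.11 ± 0.12 (SE; limma adjusted p 0.925) was 0.0032 without it. Cacng4 (1450975_at) encodes gamma4, a protein that also escorts AMPA-type glutamate receptors. It averaged 707.1 ± 131.1 in homozygous and 709.0 ± 108.3 in heterozygous arrays, a difference of -0.0079 ± 0.15 (SE; limma adjusted p 0.996). Dropping homozygous 3 gave 0.13, dropping the library labelled heterozygous 1 gave 0.055 and dropping heterozygous 2 gave 0.056. Cacnb1, the beta subunit gene of skeletal muscle channels, and the alpha2delta genes Cacna2d2 and Cacna2d4 had means of 111.0, 107.5 and 49.8 and were not tested. The 7 other gamma subunit genes had means of 12.8 to 133.0 and were not tested. Among these Cacng8, with 6.2, 9.0 and 3.6 in homozygous and 21.0, 18.1 and 19.0 in heterozygous arrays, was the only one of the 21 dim channel genes whose groups did not overlap, beside 10.6% of all dim probe sets, and all of its signals lay below the offset.

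**Figure D3:**
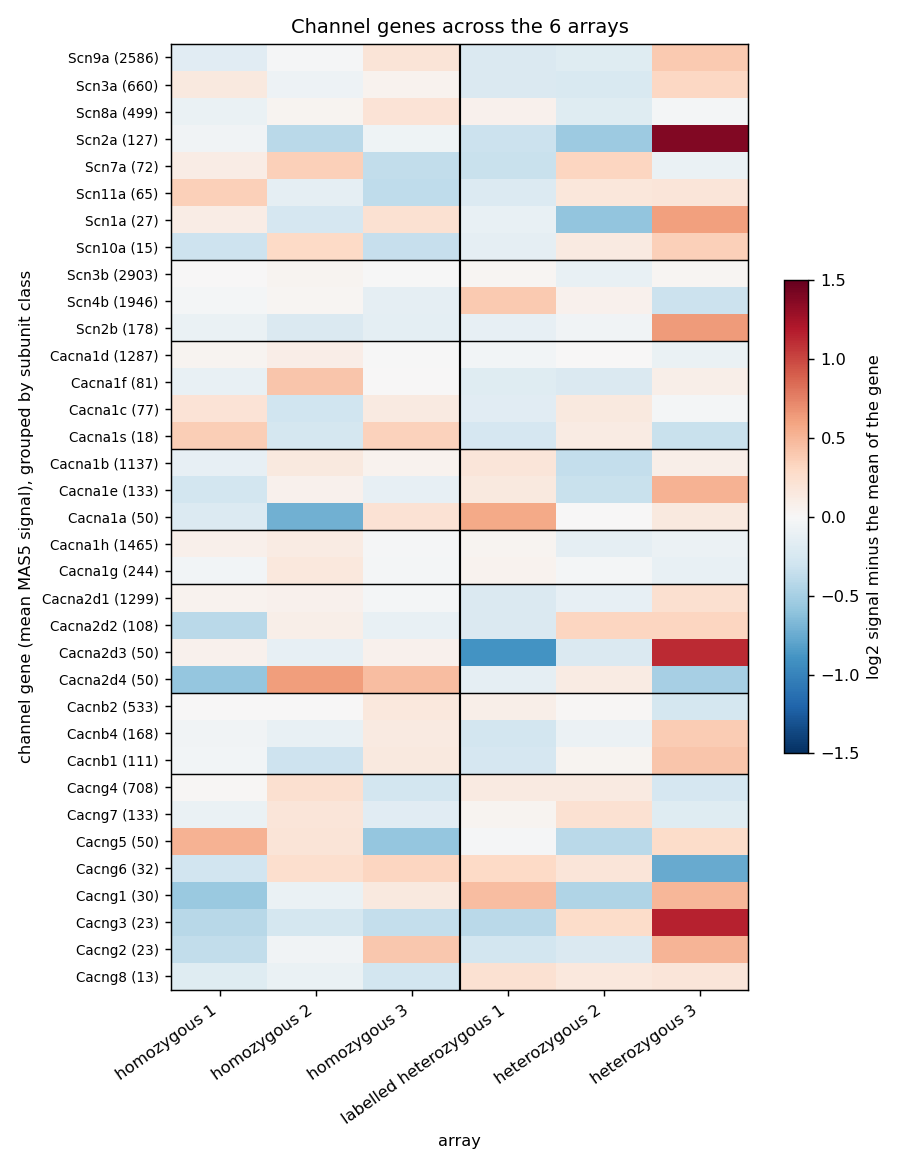
Each of the 35 channel genes (rows, with mean MAS5 signal in brackets, grouped by subunit class) on the 6 arrays (columns), coloured by log2(signal + 38.8) minus the mean of the gene over arrays. The strongest colours are in the heterozygous 3 column, at Scn2a, Cacna2d3 and Cacng3, which are dim genes, while bright genes such as Scn3b and Cacna1d are pale throughout.

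Cacna2d1, which encodes the alpha2delta subunit bound by gabapentin, gave readings that depended on the probe set. Its brightest probe set, 1433643_at, read 1343, 1354 and 1264 in homozygous arrays and 1107, 1187 and 1536 in heterozygous arrays. The difference was 0.060 ± 0.11 (SE; limma adjusted p 0.974), or -0.032 when the library labelled heterozygous 1 was left out and 0.20 without heterozygous 3. The probe set 1440397_at read 35.9, 130.1 and 126.8 in homozygous arrays and 313.7, 282.8 and 287.3 in heterozygous arrays. All heterozygous arrays, the library labelled heterozygous 1 included, lay at more than the highest homozygous reading. The difference was -1.38 ± 0.27 (SE), at an unadjusted p of 0.000400 and a limma adjusted p of 0.657, and it was -0.99 without homozygous 1. This probe set passed the filter only through its heterozygous arrays, all homozygous readings being below it, so its unadjusted p is no fair measure. The probe set 1449999_a_at went the other way, with 385.3, 383.2 and 339.7 in homozygous arrays and 309.1, 224.9 and 289.7 in heterozygous arrays. Its difference was 0.39 ± 0.13 (SE) at a limma adjusted p of 0.859. These probe sets were singled out after their values were seen, and where they lie in the gene is not known here.

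**Figure D4:**
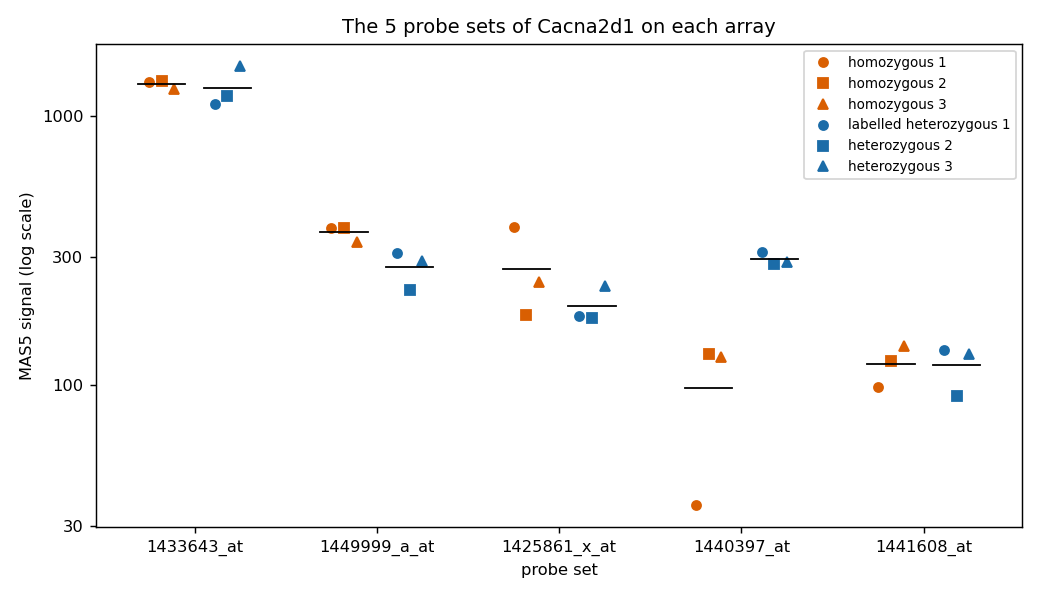
MAS5 signal (vertical axis, log scale) of the 5 probe sets of Cacna2d1, with homozygous arrays left of heterozygous arrays. Points are arrays and black lines group means. At 1440397_at the heterozygous arrays, from 282.8 to 313.7, lie above all homozygous arrays, and at 1449999_a_at they lie below them.

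Over all probe sets of the channel genes the picture was close to the background. Of 85 probe sets 29 were tested, 20 higher and 9 lower in homozygous arrays. An unadjusted p under 0.05 was reached by 2, both of Cacna2d1, which is 6.90% beside 5.73% of all probe sets. The groups did not overlap for 3, both of these and 1455230_at of Cacng4, where 10.9% of all probe sets did not. Of these, 1440397_at of Cacna2d1 was tested only through its high heterozygous readings. The Cacng4 probe set read 319.8, 347.1 and 341.9 in homozygous arrays and 377.5, 372.9 and 400.6 in heterozygous arrays, a difference of -0.17 ± 0.10 (SE; limma adjusted p 0.9002). Of the 8 genes with several probe sets tested, 4 had differences of both signs, Cacna1b, Cacna2d1, Cacnb2 and Scn3b. Scn9a had 4 probe sets tested. Heterozygous 3 was highest at 1442810_x_at and 1442809_at, which share a source accession, while homozygous arrays were highest at 1421660_at and 1457819_at. The differences of these 4 ran from 0.0030 to 0.22.

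A subset of channel genes read highest on heterozygous 3. Scn2a (1435933_at) read 102.1, 71.4 and 101.7 in homozygous arrays and 78.6, 61.6 and 344.3 in heterozygous arrays, so heterozygous 3 stood at 3.37 times the highest of the other arrays. That probe set is the brightest of Scn2a only through heterozygous 3. Over the other 5 arrays 1427280_at is the brightest, with 95.7, 140.1 and 77.0 in homozygous arrays and 74.4, 83.3 and 213.1 in heterozygous arrays, where heterozygous 3 stood at 1.52 times the highest other array. At another Scn2a probe set, 1445259_at, heterozygous 3 read 96.8 and was not the highest, beside 79.4 to 104.5 in homozygous arrays. Scn2b, above, stood at 1.75 times the highest other array. At its probe set 1430648_at heterozygous 3 read 130.4 beside 115.3 in the library labelled heterozygous 1. At 1457144_at it read 58.5, below heterozygous 2 at 62.6. Cacna2d3 read 35.5 to 46.1 in homozygous arrays and 4.7, 31.1 and 137.1 in heterozygous arrays. Cacng3, which encodes a gamma subunit of brain glutamate receptors, read 4.0 to 8.8 in homozygous arrays and 4.4, 30.3 and 87.6 in heterozygous arrays. With Scn1a, whose reading of 58.5 on heterozygous 3 stood beside 14.7 to 35.7 in homozygous arrays, these are the 5 of 35 channel genes at which heterozygous 3 exceeded every other array by more than 1.5-fold.

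That share of 14.3% stood beside 2.79% of all probe sets, and it was again 5 of 35 when the probe set of each gene was chosen on the other 5 arrays. Over all 85 probe sets of the channel genes the count was 7, or 8.24%. It is 1 of 14, or 7.14%, among the channel genes tested, beside 0.622% of all probe sets tested, and 4 of 21, or 19.0%, among the dim ones, beside 4.95% of dim probe sets. Cacnb4 encodes a beta subunit of brain channels. At 1436912_at, its brightest probe set, it read 151.2 to 185.9 in homozygous arrays and 130.6, 154.0 and 226.8 in heterozygous arrays, a smaller excess. The excess was larger at the dimmer 1428928_at, with 56.1, 59.1 and 64.1 in homozygous arrays and 59.5, 72.5 and 152.3 in heterozygous arrays. Heterozygous 3 was the highest array for 14 of 35 channel genes, or 40%, for 13 with the probe sets chosen on the other arrays, and for 29 of the 85 probe sets, or 34.1%, beside 20.8% of all probe sets. It was the lowest for 7 of 35, or 20%, beside 19.1% of all, and these included Scn4b, Cacna1d, Cacnb2 and Cacna1g.

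The same array was the highest for 10 of 13 brain and bulb neuron markers, beside 20.8% of all probe sets. It exceeded every other array by more than 1.5-fold for 6 of the 13, beside 2.79% of all. Only 5 of the 13 passed the filter. The 6 include Tbx21, at 11.6 on heterozygous 3 and so under the offset of 38.8, and Slc17a7 at 80.3. Gad2, Th and Eomes were not highest there. The neuronal nuclear protein gene Rbfox3 read 49.5 to 184.2 in homozygous arrays and 111.6, 118.8 and 791.1 in heterozygous arrays. Cplx1, which encodes a release protein, read 229.3 to 307.7 in homozygous arrays and 140.0, 246.0 and 738.2 in heterozygous arrays. Of the mature olfactory neuron markers heterozygous 3 was the lowest array for 7 of 10, beside 23.9% of all probe sets tested. This was not particular to those neurons. Heterozygous 3 was also lowest for 4 of 8 macrophage, 4 of 8 sustentacular and gland, and 3 of 6 smooth muscle and pericyte markers. For myelin and glia markers it was lowest for 2 of 7, and for skeletal muscle markers for 2 of 12. It was the highest for 4 and the lowest for 0 of 10 immature neuron markers. Eomes, a marker of bulb projection neurons, went the other way, with 452.8 to 510.0 in homozygous arrays and 381.7, 310.5 and 205.2 in heterozygous arrays. The part of these cell types in the channel readings was not tested. In RNA of a whole tissue, fewer cells of a type and less RNA per cell cannot be told apart. Without heterozygous 3, 0 of the 14 channel genes passed and 3 had an unadjusted p under 0.05, Scn4b at -0.28, Scn3a at 0.27 and Cacna2d1 at 0.20, with limma adjusted p values of 0.455, 0.467 and 0.501. In that comparison 9.32% of all probe sets had an unadjusted p under 0.05. With the library labelled heterozygous 1 left out as well, 1 of 14 channel genes did, Cacna1b, beside 9.89% of all probe sets.

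**Figure D5:**
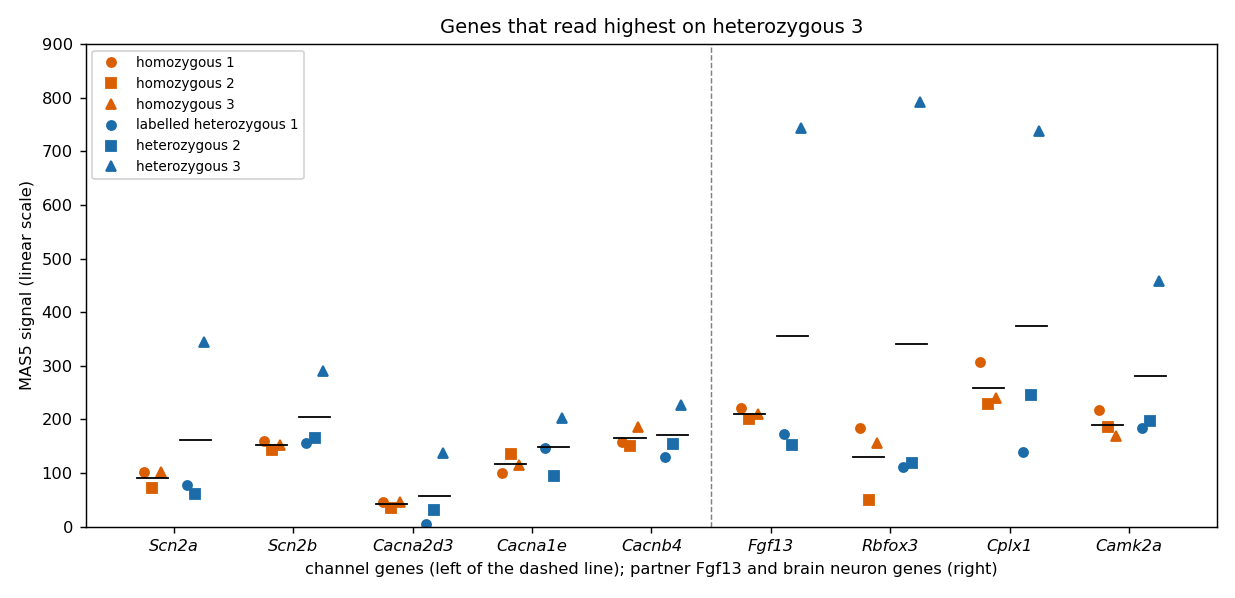
MAS5 signal (vertical axis, linear scale) of 5 channel genes, the sodium channel partner Fgf13 and 3 brain neuron genes, with homozygous arrays left of heterozygous arrays. Points are arrays and black lines group means. Heterozygous 3 is the highest point for each gene, from 137.1 at Cacna2d3 to 791.1 at Rbfox3. Only genes that read highest on heterozygous 3 are shown, so the figure illustrates that pattern and does not test it. Cacng3 and Scn1a, which also passed 1.5-fold, are not shown, and not all 5 channel genes shown passed it. Each gene is at its probe set of highest mean signal, which for Scn2a is the brightest only through heterozygous 3.

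Genes that work with these channels were then read from lists of sodium channel partners, calcium channel partners and related cation channels. None of the 23 members tested passed adjustment in limma, and 2 had an unadjusted p under 0.05, where 5.73% of all probe sets did. Of 10 sodium channel partners tested 1 was higher and 9 lower in homozygous arrays, with a median difference of -0.061. Without heterozygous 3 the count was 4 higher and 6 lower, with a median of -0.015. Ank3, which encodes the ankyrin that holds sodium channels at the axon initial segment, read 4875, 5352 and 5596 in homozygous arrays and 4909, 4804 and 7427 in heterozygous arrays. Its difference of -0.087 ± 0.14 (SE; limma adjusted p 0.963) turned to 0.12 without heterozygous 3. Cntn1, a cell adhesion protein that binds sodium channels, differed by -0.22, and by 0.073 without heterozygous 3. Fgf12, which encodes a factor that binds the sodium channel tail, differed by -0.018, with 0.029 without homozygous 1 and 0.0035 without homozygous 2, and Pdzd2 by -0.17, or -0.11 without homozygous 2 and -0.27 without homozygous 3. The related Fgf13, named after its values were seen, read 200.8 to 221.4 in homozygous arrays and 172.4, 153.2 and 742.5 in heterozygous arrays.

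Of 10 calcium channel partners tested 4 were higher and 6 lower, with a median of -0.031. This count turned to 7 higher and 3 lower without heterozygous 3, with a median of 0.042, and to 6 higher and 4 lower without homozygous 3, with a median of 0.030. Thbs1, which encodes thrombospondin 1, a matrix protein of a family that binds alpha2delta subunits, read 920.9, 819.0 and 908.9 in homozygous arrays and 737.2, 740.6 and 625.1 in heterozygous arrays. The groups did not overlap, as they did not for Nptn, named below, and for 10.9% of all probe sets tested. The difference of Thbs1 was 0.32 ± 0.098 (SE), at an unadjusted p of 0.00804 and a limma adjusted p of 0.859. Rims1, a scaffold that ties calcium channels to release sites, read 145.0, 211.8 and 239.5 in homozygous arrays and 221.9, 296.9 and 355.5 in heterozygous arrays. Its difference was -0.48 ± 0.19 (SE; limma adjusted p 0.859), and the groups overlapped. It was -0.30 without homozygous 1. Nptn and the brighter scaffold gene Rims3 differed by -0.11 and 0.21. Without heterozygous 3 these were -0.050 and 0.062, and Nptn was -0.072 without homozygous 2. Rims3 was 0.40 without the library labelled heterozygous 1 and 0.14 without homozygous 3. Of the related cation channels 3 of 14 measured were tested, 2 higher and 1 lower. Hcn2, a pacemaker channel gene, read 496.5, 454.0 and 469.8 in homozygous arrays and 469.4, 422.9 and 312.0 in heterozygous arrays, a difference of 0.23 ± 0.14 (SE; limma adjusted p 0.9002) that was 0.080 without heterozygous 3. Tpcn1, which encodes a channel of endosomes and lysosomes, differed by 0.26 ± 0.14 (SE; limma adjusted p 0.893), or by 0.13 without heterozygous 3 and by 0.39 when the library labelled heterozygous 1 was left out.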

How the data were processed

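RNA of olfactory epithelium was extracted with TRI reagent, labelled with biotin by the Affymetrix one cycle protocol and hybridised to mouse genome arrays, per the labels' protocols. The authors' values are intensity on a linear scale, 1 MAS5 signal for each probe set, as the submitters' processing notes name that tool. Its version and settings are not stated in what was used here. Each array had a 2% trimmed mean of 500.0, so no further scaling was done. Probe sets were named through the platform annotation, those naming several genes were not used for genes, and sequences are from RefSeq (GRCm38.p6). Groups were compared as log2(signal + 38.8), an offset equal to the pooled 25th percentile, after leaving out controls and probe sets with a mean below the median. The fit used limma 3.58.1 in R 4.3.3 (lmFit, eBayes with trend) with Benjamini-Hochberg adjustment over the 22514 probe sets tested, and was tested on simulated data. At most 101 of 45101 values were identical between any 2 arrays.

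Channel genes named with a difference were the 12 brightest, the 8 of lowest p, those listed for olfactory neurons and the brightest of each subunit class. From each partner list the 2 genes of lowest p and the 2 brightest were named. Offset, filter, scaling, variance model, replicate block, probe set choice and arrays left out were varied. The members and lists were chosen with earlier results of these data known.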

Additional observations from a re-analysis of the deposited data

How the results depend on the processing

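No channel gene and no partner gene passed adjustment under any of the 17 alternatives, which changed the offset, the filter, the scaling, the variance model or the choice of probe set, added the replicate block or left out arrays. Over all probe sets the count past adjustment, 0, was 1 with the offset at the 50th percentile, between 0 and 25 with 1 array left out, the highest without the library labelled heterozygous 1, and 27 when both the library labelled heterozygous 1 and heterozygous 3 were dropped. That last alternative was added once the data had been seen. No conclusion is drawn from its counts or p-values, as its spread comes from homozygous arrays only. Heterozygous 2 is the only heterozygous array left once the libraries labelled heterozygous 1 and 3 are dropped. Without both of these, 1 channel gene, Cacna1b, had an unadjusted p under 0.05, beside 9.89% of all probe sets, at a log2 difference of 0.38 and a limma adjusted p of 0.357. The 5 of 35 channel genes at which heterozygous 3 exceeded all other arrays by 1.5-fold were 7 of 85 when all their probe sets were counted, also added once the data had been seen.

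Log2 differences of named genes changed sign in 26 cases among those tested. With arrays set to a common median Scn3b was at -0.023 and Scn9a at -0.049. With probe sets of a gene averaged, Scn3b was at -0.00017, Cacna2d1 at -0.11, Pdzd2 at 0.085, Ank3 at 0.045 and Nptn at 0.036. Without the libraries labelled heterozygous 1 and 3 Cntn1 was at 0.095 and Ank3 at 0.13. With 1 array left out, differences ran from -0.019 to 0.054 for Scn3b, -0.11 to 0.20 for Scn9a, -0.28 to 0.078 for Scn4b, -0.032 to 0.20 for Cacna2d1, -0.11 to 0.16 for Cacna1b, -0.13 to 0.13 for Cacng4, -0.0036 to 0.27 for Scn3a, -0.0092 to 0.095 for Cacna1g, -0.38 to 0.073 for Cntn1, -0.20 to 0.12 for Ank3 and -0.086 to 0.029 for Fgf12. The untested Cacna1c ran from -0.13 to 0.19 over all alternatives. The cause was not tested. The Cacna2d1 probe set 1440397_at stayed lower in homozygous arrays, between -1.68 and -0.85, but fell below the filter whenever a heterozygous array was left out.

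Arrays of the same replicate number did not deviate together, with correlations of 0.016, -0.12 and -0.047 for numbers 1, 2 and 3. Arrays of unlike number had -0.073 to 0.13. No pairing by number was thus seen, though 3 arrays per group are too few to exclude it. With the replicate block 0 channel genes passed, the lowest limma adjusted p being 0.971, as with 0 of all probe sets.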
